A study of Homo sapiens with 9 samples.

Results

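Transforming growth factor beta (TGF-beta) and activin are secreted signals that restrain the growth of mammary epithelial cells and can drive them towards a mesenchymal state. The expression of 10 genes of this pathway was followed in a human mammary epithelial line with and without added HER2. They are the ligand genes TGFB1, TGFB2 and INHBA, the receptor genes TGFBR1, TGFBR2 and TGFBR3, the signal transducer SMAD3, the inhibitors SMAD7 and BAMBI, and the matrix gene TGFBI. Each was matched by its symbol in the annotation of the array. All 10 were found among 18404 genes tested, each with 1 transcript cluster, the array's unit of measurement.

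RNA came from MCF10A, an established, non-tumorigenic mammary epithelial line, measured on Affymetrix whole-transcript arrays with n = 3 arrays in each of 3 groups. The groups were control cells, cells with a wild-type HER2 transgene (WT-HER2) and cells with the splice variant Delta-HER2. The labels call the control cells parental in one place and empty-vector cells in another, and give neither the promoter of the transgenes nor whether a line was 1 clone. All cells were grown with 5% horse serum, 20 ng/ml epidermal growth factor, hydrocortisone, cholera toxin and insulin. They then spent 16 hours in serum-free medium before RNA was taken, so the levels are those of cells without added serum.

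In this pathway, a dimeric ligand binds a type II receptor such as the TGFBR2 product, which activates a type I receptor such as the TGFBR1 product, and betaglycan (TGFBR3) is a co-receptor that presents ligand. The type I kinase phosphorylates SMAD2 and SMAD3, which join SMAD4 and act on genes in the nucleus. SMAD7 and BAMBI restrain the signal at the receptor. TGF-beta ligands are secreted in a latent complex with latent TGF-beta binding proteins (LTBP) and are released by integrins, among others. None of these steps was measured here, only the RNA levels.

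The array values are log2 levels as the authors deposited them, and an increase of 1 is a doubling of signal. As a check of the labels, ERBB2, the gene of HER2, averaged 6.99 in control arrays, 7.98 where WT-HER2 had been added and 8.95 where Delta-HER2 had, and the 3 WT-HER2 values were identical as deposited. Background was judged from 340 genes for olfactory receptors, which epithelial cells are not known to use, and whose 0.95 quantile was 3.18. Of 11 mammary epithelial markers all lay above it in each group, against 3 of 10 fibroblast, 3 of 8 blood and immune and 2 or 3 of 8 endothelial markers. Control replicate 1 and WT-HER2 replicate 3 stood apart from the other arrays of their groups, with deviations that correlated across genes at r = 0.64, and results that rest on them are given without them too. Whether replicates were separate cultures is not stated, so p-values measure the spread between these arrays.

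In Delta-HER2 cells the ligand genes TGFB1, TGFB2 and INHBA and the receptor gene TGFBR2 rose, while the co-receptor gene TGFBR3 and TGFBI fell. Thus 6 of the 10 genes passed the test against control (limma, Benjamini-Hochberg adjusted p below 0.05 over all genes), 4 higher and 2 lower, beside 25.4% of all genes called in that comparison (13.6% higher and 11.7% lower). The median difference of the 10 was 0.23 log2, against −0.01 for all genes. In WT-HER2 cells 1 of the 10 passed, TGFBR1, which fell, beside 1.68% of all genes called (0.777% higher and 0.902% lower), with a median of −0.05 against 0.01. Between the HER2 lines 8 passed, 6 higher and 2 lower with Delta-HER2, beside 22.8% of all genes (13.4% higher and 9.35% lower), with a median of 0.40 against −0.04. Without control replicate 1 and WT-HER2 replicate 3 these counts were 6, 0 and 8. Each pair of comparisons shares the arrays of 1 group, so they are not independent of each other.

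To show the DNA from which the genes that moved with Delta-HER2 are transcribed, 4 promoters are given, those of the ligand genes TGFB1 and TGFB2, of TGFBR2, the largest increase, and of TGFBI, the largest decrease. They are the 250 bases before the first start site that RefSeq lists (build GRCh38.p14), written 5′ to 3′ on the strand of the gene, with matches to GGGCGG (GC box), CAGAC (a SMAD box) and TATAAA, on either strand, in capitals.
TGFB1, chr19:41353923-41354172, minus strand: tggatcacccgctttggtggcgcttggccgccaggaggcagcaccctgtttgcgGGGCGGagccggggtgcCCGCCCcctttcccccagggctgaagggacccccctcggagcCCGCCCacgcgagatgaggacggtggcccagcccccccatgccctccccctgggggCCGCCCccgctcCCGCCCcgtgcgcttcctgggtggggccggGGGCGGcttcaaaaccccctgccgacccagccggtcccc
TGFB2, chr1:218345086-218345335, plus strand: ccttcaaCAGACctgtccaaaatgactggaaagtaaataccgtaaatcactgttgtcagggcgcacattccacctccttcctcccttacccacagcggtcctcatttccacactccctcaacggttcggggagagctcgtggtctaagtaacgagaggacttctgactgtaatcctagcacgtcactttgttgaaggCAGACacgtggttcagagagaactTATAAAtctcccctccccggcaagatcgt
TGFBR2, chr3:30606106-30606355, plus strand: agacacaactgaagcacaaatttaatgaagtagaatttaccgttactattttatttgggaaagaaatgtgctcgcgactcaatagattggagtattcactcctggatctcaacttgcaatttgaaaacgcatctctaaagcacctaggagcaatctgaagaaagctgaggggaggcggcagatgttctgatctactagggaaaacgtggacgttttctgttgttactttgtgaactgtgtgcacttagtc
TGFBI, chr5:136028738-136028987, plus strand: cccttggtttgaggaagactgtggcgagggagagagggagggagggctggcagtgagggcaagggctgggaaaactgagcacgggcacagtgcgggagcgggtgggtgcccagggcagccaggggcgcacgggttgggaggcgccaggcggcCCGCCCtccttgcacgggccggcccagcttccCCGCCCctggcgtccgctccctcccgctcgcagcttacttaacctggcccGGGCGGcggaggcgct
The windows shown for the genes with higher RNA did not share one layout. TGFB1 held 6 GC boxes and 76.8% G or C. TGFB2 held a TATAAA match that began 29 bases before the start site, 2 SMAD boxes and 50.4% G or C. TGFBR2, in the first of its 2 listed windows, held none of the 3 motifs and 40.8% G or C. TGFBI, which fell, held 3 GC boxes and 72.8%. Of all 10 genes, 5 held a GC box, 4 a SMAD box and 2 (TGFB2 and INHBA) TATAAA, beside 42.3%, 37.8% and 11.1% of 27305 promoters of the same length. The AP-1 motif TGANTCA, the cyclic AMP response motif TGACGTCA and the SMAD palindrome GTCTAGAC were in 0 of the 10 and in 6.60%, 1.77% and 0.176% of all promoters. For some of the 10 genes more than 1 window is listed (8 for TGFBR1, 5 for SMAD3, 3 for SMAD7 and 2 for TGFBR2). Only the first was searched, so a motif missing here may lie before another start site. A match describes the letters in this window and is not evidence of binding.

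Among the ligands, TGFB1 encodes the TGF-beta isoform that most cell types make. Its level was 6.59, 6.81 and 6.88 in the control arrays, 6.98, 6.98 and 6.66 with WT-HER2 and 7.26, 7.29 and 7.37 with Delta-HER2. Every Delta-HER2 array lay above the other 6, and the WT-HER2 and control arrays overlapped. TGFB1 rose 1.46-fold with Delta-HER2 against control (log2 difference 0.55, SE 0.11, adjusted p = 0.00427). Against WT-HER2 it was 1.35-fold higher (0.43, adjusted p = 0.0166), a call that ended without Delta-HER2 replicate 3 (0.40, adjusted p = 0.0656, the highest of all alternatives, which began at 0.00456). With WT-HER2 the difference from control was 0.11 (95% interval −0.13 to 0.36, adjusted p = 0.759).

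TGFB2 encodes a second isoform, which depends more on betaglycan to reach its receptors. The control arrays had 3.49, 3.28 and 3.37, the WT-HER2 arrays 3.39, 3.57 and 3.29 and the Delta-HER2 arrays 3.96, 4.10 and 4.15. The Delta-HER2 arrays were again the highest 3, and the other groups overlapped just above the background bound of 3.18. TGFB2 rose 1.62-fold with Delta-HER2 against control (0.69, SE 0.10, adjusted p = 4.89e-04) and 1.57-fold against WT-HER2 (0.65, adjusted p = 8.38e-04). Its difference with WT-HER2 was 0.04 (interval −0.18 to 0.25).

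INHBA encodes the subunit that forms activin A, which signals through its own type II receptors and the same SMAD2 and SMAD3. Control levels were 3.17, 3.08 and 2.99 and WT-HER2 levels 3.16, 3.02 and 2.94, all under the background bound, while the Delta-HER2 arrays had 3.45, 3.64 and 3.45. INHBA was thus above that bound in the Delta-HER2 arrays and in none of the others. It rose 1.35-fold with Delta-HER2 against control (0.43, SE 0.09, adjusted p = 0.00531) and 1.39-fold against WT-HER2 (0.47, adjusted p = 0.00360). The size is uncertain because it starts from background.

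**Figure D1:**
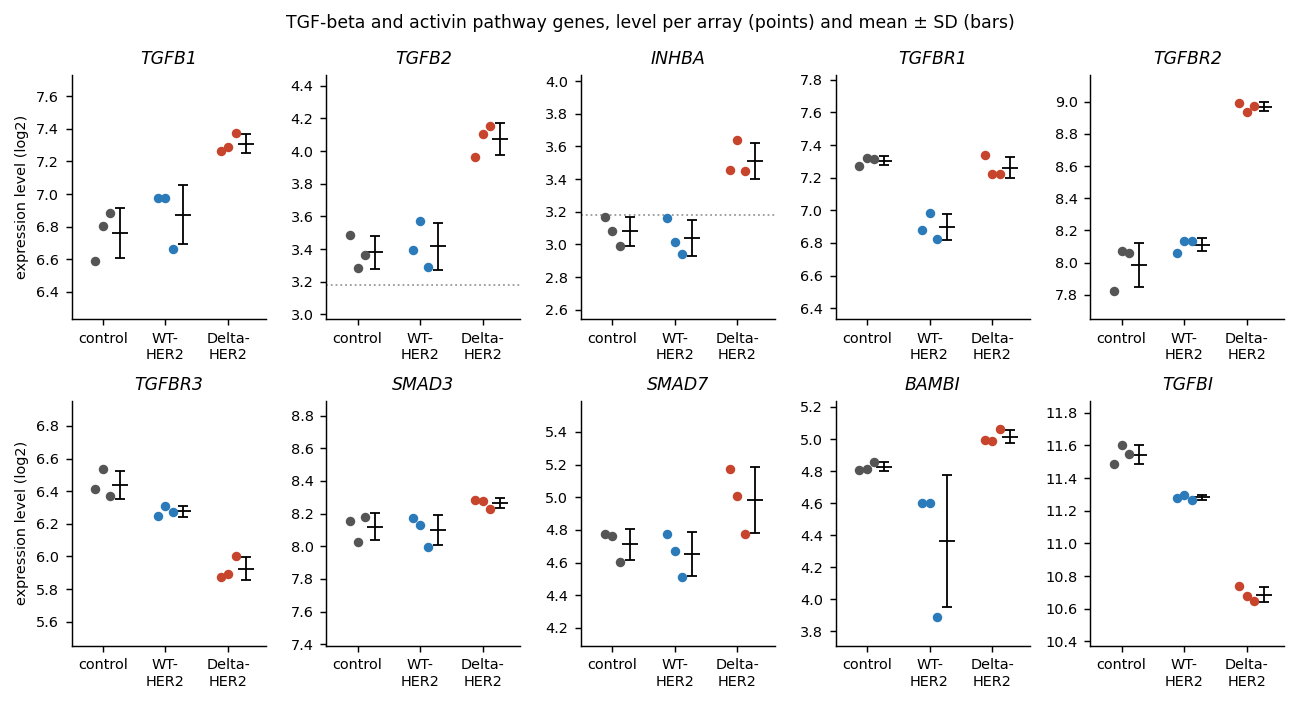
Expression level (log2, as deposited) of the 10 genes in each array, 3 control (grey), 3 WT-HER2 (blue) and 3 Delta-HER2 (red), with the group mean and SD as bars; the dotted line marks the 0.95 quantile of the olfactory receptor genes at 3.18, and each panel has its own axis. The Delta-HER2 arrays stand above both other groups for TGFB1, TGFB2, INHBA and TGFBR2 and below them for TGFBR3 and TGFBI, and WT-HER2 stands below both others for TGFBR1 and BAMBI.

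The 3 receptor genes each took a different course. TGFBR2 encodes the type II receptor that binds TGF-beta first. Its level was 7.83, 8.07 and 8.06 in control arrays, 8.06, 8.14 and 8.14 with WT-HER2 and 8.99, 8.94 and 8.98 with Delta-HER2. The Delta-HER2 arrays agreed closely and lay well above the rest. TGFBR2 rose 1.98-fold against control (0.98, SE 0.08, adjusted p = 1.64e-05) and 1.81-fold against WT-HER2 (0.86, SE 0.08, adjusted p = 5.12e-05), the largest difference of the 10 genes in either comparison. With WT-HER2 the difference was 0.13 (interval −0.05 to 0.31, adjusted p = 0.627).

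TGFBR1, the gene of the type I receptor kinase, was low in WT-HER2 cells instead. Control arrays had 7.27, 7.32 and 7.32, WT-HER2 arrays 6.88, 6.98 and 6.83 and Delta-HER2 arrays 7.34, 7.22 and 7.22. The control and Delta-HER2 arrays overlapped, and every WT-HER2 array lay below them. TGFBR1 fell by 0.41 log2 with WT-HER2 against control (1.33-fold lower, SE 0.07, adjusted p = 0.0212), and it was 1.29-fold higher with Delta-HER2 than with WT-HER2 (0.37, adjusted p = 0.00396). Its difference with Delta-HER2 against control was −0.04 (interval −0.20 to 0.12). The WT-HER2 call ended without control replicate 2 (adjusted p = 0.0981) or 3 (0.0923), without WT-HER2 replicate 1 (0.0859) or 3 (0.0549), and without control replicate 1 and WT-HER2 replicate 3 together (0.0607), with differences from −0.40 to −0.37. Over all alternatives the adjusted p ran from 0.00705 to 0.103.

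TGFBR3, the gene of betaglycan, was highest in control cells and lowest in Delta-HER2 cells. Levels were 6.42, 6.53 and 6.37 in control, 6.25, 6.31 and 6.27 with WT-HER2 and 5.87, 5.89 and 6.0 with Delta-HER2, and none of the groups overlapped. TGFBR3 fell by 0.52 log2 with Delta-HER2 against control (1.43-fold lower, SE 0.07, adjusted p = 5.06e-04) and by 0.35 against WT-HER2 (1.28-fold lower, adjusted p = 0.00570). The step from control to WT-HER2 was −0.16 (interval −0.32 to −0.002) and did not pass over all genes (adjusted p = 0.438). In Delta-HER2 cells, then, the ligand-binding receptor gene TGFBR2 was higher, the co-receptor gene TGFBR3 lower and TGFBR1 not shown to differ from control.

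SMAD3 passed no comparison. It encodes the transducer that carries the receptor signal to the nucleus, and its levels were 8.15, 8.03 and 8.18 in control, 8.18, 8.13 and 8.0 with WT-HER2 and 8.28, 8.28 and 8.23 with Delta-HER2. The Delta-HER2 arrays lay just above all others, by a difference of 0.14 against control (interval −0.02 to 0.31, adjusted p = 0.223) and 0.16 against WT-HER2 (interval −0.004 to 0.33, adjusted p = 0.166). Its partner genes SMAD2 and SMAD4 did not pass either, with Delta-HER2 differences from control of 0.11 (adjusted p = 0.636) and −0.08 (adjusted p = 0.699).

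The inhibitor genes differed from each other. SMAD7, which TGF-beta signaling induces and whose product blocks the type I receptor, had 4.77, 4.76 and 4.60 in control arrays, 4.77, 4.67 and 4.51 with WT-HER2 and 5.17, 5.01 and 4.77 with Delta-HER2. The lowest Delta-HER2 array, replicate 3, reached only the top of the other groups. Its Delta-HER2 differences were 0.27 against control (interval 0.02 to 0.53, adjusted p = 0.125) and 0.33 against WT-HER2 (interval 0.08 to 0.59, adjusted p = 0.0668), neither past the threshold over all genes. Without Delta-HER2 replicate 3 both passed, at 0.38 (adjusted p = 0.0391) and 0.44 (adjusted p = 0.0238), and over all alternatives the adjusted p ran from 0.0391 to 0.381 and from 0.0230 to 0.226.

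BAMBI encodes a pseudoreceptor, which resembles a type I receptor but lacks the kinase. Control arrays had 4.81, 4.81 and 4.86, WT-HER2 arrays 4.60, 4.60 and 3.89, and Delta-HER2 arrays 5.00, 4.99 and 5.06. All WT-HER2 arrays lay below control and all Delta-HER2 arrays above it, although WT-HER2 replicate 3 was far below its fellows, so that the SD of that group was 0.41. BAMBI was 1.57-fold higher with Delta-HER2 than with WT-HER2 (0.65, SE 0.17, adjusted p = 0.0198). This call ended without Delta-HER2 replicate 1 (adjusted p = 0.0585), 2 (0.0521) or 3 (0.0685), and without WT-HER2 replicate 3 the difference was smaller but passed (0.41, adjusted p = 0.00199), in a range over alternatives from 0.00192 to 0.0685. Against control the differences were −0.46 with WT-HER2 (adjusted p = 0.320) and 0.19 with Delta-HER2 (adjusted p = 0.534). Without WT-HER2 replicate 3 they were −0.22 (adjusted p = 0.207) and 0.19 (adjusted p = 0.0412, with 0.0412 to 0.715 over its alternatives).

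TGFBI, named for its induction by TGF-beta, encodes a secreted matrix protein that binds collagen and integrins. Its levels were 11.48, 11.60 and 11.55 in control arrays, 11.28, 11.30 and 11.27 with WT-HER2 and 10.74, 10.68 and 10.64 with Delta-HER2, and the 3 groups did not overlap. TGFBI fell by 0.86 log2 with Delta-HER2 against control (1.81-fold lower, SE 0.06, adjusted p = 9.47e-06) and by 0.60 against WT-HER2 (1.51-fold lower, adjusted p = 1.21e-04). With WT-HER2 the difference was −0.26 (interval −0.41 to −0.12), which did not pass over all genes (adjusted p = 0.0971). The fall of TGFBI in Delta-HER2 cells thus ran opposite to the rise of the ligand genes TGFB1 and TGFB2.

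**Figure D2:**
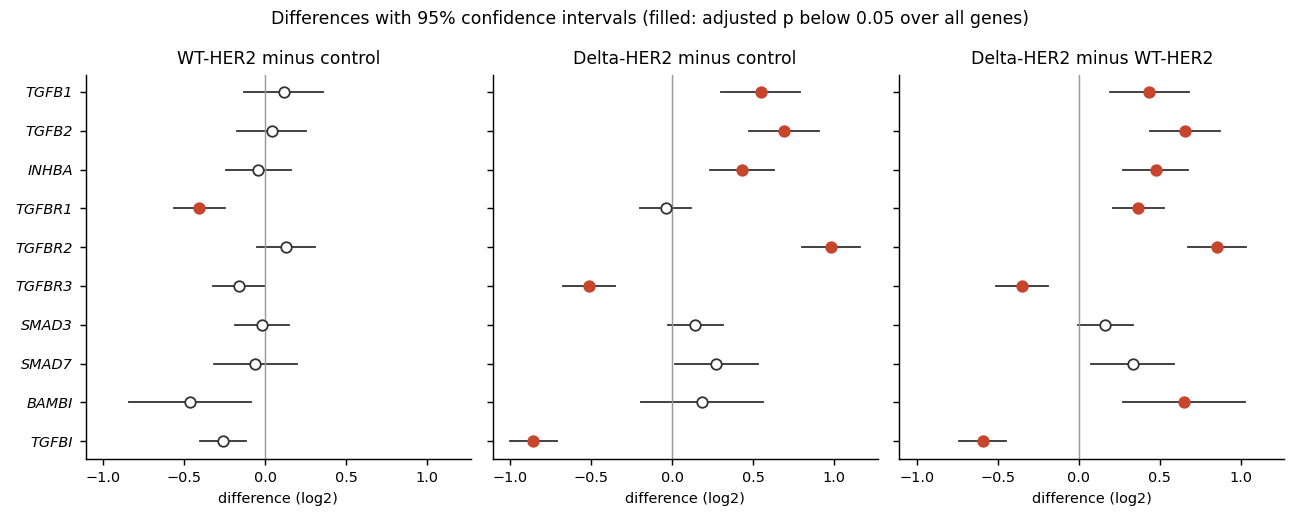
Differences between group means (log2, horizontal axis) for the 10 genes (rows) in the 3 comparisons, with 95% confidence intervals from limma as lines; filled points passed at adjusted p below 0.05 over all genes. With WT-HER2 the single filled point is TGFBR1 at −0.41, whereas with Delta-HER2 against control TGFB1, TGFB2, INHBA and TGFBR2 are filled to the right of 0 and TGFBR3 and TGFBI to the left.

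In the order of levels, 6 genes (TGFB1, TGFB2, INHBA, TGFBR2, TGFBR3 and TGFBI) had Delta-HER2 at one end with WT-HER2 and control not told apart by the test, TGFBR1 had WT-HER2 alone at its low end, and BAMBI passed between the HER2 lines but not against control. The groups did not overlap for 8 of the 10 genes in Delta-HER2 against control, 6 higher and 2 lower, beside 37.0% of all genes (19.2% higher and 17.8% lower). Between the HER2 lines this held for 9, of which 7 were higher and 2 lower with Delta-HER2, beside 34.7% (18.3% higher and 16.3% lower). In WT-HER2 against control it held for 4, TGFBR1, TGFBR3, BAMBI and TGFBI, all lower, beside 14.0% (6.40% higher and 7.63% lower). Values of 3 of the 10 genes (TGFB1 and BAMBI in WT-HER2, TGFBR1 in Delta-HER2) were identical in a pair of arrays of one group, as were those of 31.3% of all genes, and such ties can make the spread look smaller than it is.

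The genes around these were described from 4 lists, which leave the 10 genes out. Of 22 further genes for ligands, latency proteins and extracellular regulators, 5 rose and 4 fell with Delta-HER2, with a median of −0.07 log2 (all genes: −0.01, 25.4% called). The 4 genes of the LTBP family did not move together. LTBP1, whose product holds latent TGF-beta in the matrix, rose by 1.79 (SE 0.07, adjusted p = 4.49e-07), and LTBP2, whose product is not known to bind latent TGF-beta, rose by 1.36 (SE 0.06, adjusted p = 5.07e-07). LTBP3 fell by 0.41 (adjusted p = 0.00152) and LTBP4 did not pass (−0.23, adjusted p = 0.0593), both named after their values were seen. The mean LTBP1 level was 7.31 ± 0.12 (SD) in control arrays, 9.09 ± 0.05 with Delta-HER2 and 7.87 with WT-HER2, where the 3 deposited values were identical. ITGB6 and ITGB8 encode the integrin subunits that release TGF-beta from its latent form, and they went opposite ways. ITGB6 rose by 1.21 (SE 0.12, adjusted p = 7.02e-05), while ITGB8 fell by 0.96 (SE 0.08, adjusted p = 1.72e-05).

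With WT-HER2, 2 of the 22 rose and 0 fell (2 lower at an unadjusted p below 0.05 in limma). Of all genes, 1.68% were called there (0.777% higher and 0.902% lower). The median of the list was 0.01, as for all genes. The 2 that rose were LTBP1 (0.56, SE 0.07, adjusted p = 0.00661) and the proteoglycan gene DCN, whose product can bind TGF-beta (0.58, SE 0.10, adjusted p = 0.0179). DCN lost its call when control replicate 2 (adjusted p = 0.0758), control replicate 3 (0.0849), WT-HER2 replicate 1 (0.0819) or WT-HER2 replicate 2 (0.0803) was left out, with differences from 0.54 to 0.59. Over all alternatives its adjusted p ran from 0.00127 to 0.0849. Between the HER2 lines 5 were higher with Delta-HER2 and 5 lower, beside 13.4% and 9.35% of all genes (median −0.11, all genes −0.04). Those with the smallest p were LTBP2 (1.16), LTBP1 (1.22), ITGB6 (1.72) and ITGB8 (−0.72). LTBP3 was lower there too (−0.55, adjusted p = 2.84e-04).

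Of 24 further genes for receptors and intracellular signaling, 7 rose and 3 fell with Delta-HER2, with a median of 0.03, beside 13.6% of all genes called higher and 11.7% lower. PMEPA1, which TGF-beta induces and whose product restrains SMAD signaling, rose by 0.91 (SE 0.08, adjusted p = 3.42e-05), from 5.97 ± 0.09 in control to 6.88 ± 0.06. ENG, the gene of the co-receptor endoglin, rose by 1.00 (SE 0.11, adjusted p = 1.32e-04) and the adaptor gene DAB2 by 0.65 (SE 0.09). ACVR1C, a type I receptor gene of activin and nodal, fell by 0.63 (SE 0.13, adjusted p = 0.00476), as did ACVR2A, a type II activin receptor gene (−0.53, adjusted p = 0.00694), and the ubiquitin ligase gene SMURF1 (−0.38, adjusted p = 0.0316), both named after their values were seen. With WT-HER2, 0 of the 24 passed in limma (median −0.04; 3 at an unadjusted p below 0.05, and 2 with array weights), beside 1.68% of all genes, where the largest difference in either direction was −0.36 for ACVR1C. Between the HER2 lines 6 were higher with Delta-HER2 and 0 lower in limma (median 0.03, with 1 lower at an unadjusted p below 0.05), beside 22.8% of all genes called. Those with the smallest p were PMEPA1 (1.04), ENG (0.77), the ubiquitin ligase gene SMURF2 (0.52) and STRAP, whose product binds TGF-beta receptors (0.48).

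**Figure D3:**
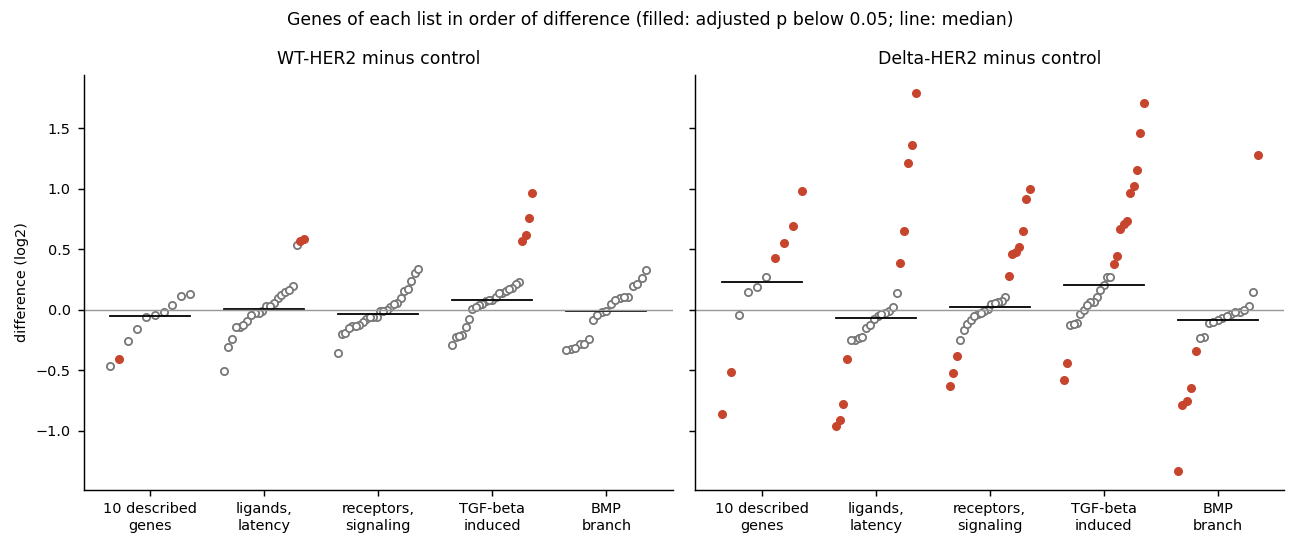
Differences from control (log2, vertical axis) for the 10 genes and for 4 lists of further pathway genes, each gene a point in order of its difference; filled points passed at adjusted p below 0.05 and the line marks the median of a list. With WT-HER2 few points are filled, whereas with Delta-HER2 each list has filled points on both sides of 0, led by LTBP1 at 1.79 and, on the low side, ID3 at −1.33.

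Of 25 genes that TGF-beta induces in various cells, 10 rose and 2 fell with Delta-HER2 (median 0.20) and 4 rose and 0 fell with WT-HER2 (median 0.08; 3 lower at an unadjusted p below 0.05 in limma). Of all genes, 13.6% were called higher and 11.7% lower with Delta-HER2, and 0.777% and 0.902% with WT-HER2. Those with the smallest p with Delta-HER2 were the integrin gene ITGA5 (1.46, SE 0.07), the matrix gene THBS1, whose product can activate latent TGF-beta (1.15, SE 0.08), the collagen gene COL4A1 (1.02, SE 0.08) and ANGPTL4, a secreted regulator of lipid uptake (1.71, SE 0.14, adjusted p = 2.08e-05). The 2 that fell, named after their values were seen, were the cell cycle inhibitor gene CDKN1A (−0.58, adjusted p = 1.40e-04) and the collagen gene COL1A1 (−0.44, adjusted p = 0.0134). With WT-HER2, THBS1 (0.96, SE 0.08, adjusted p = 7.38e-04), ITGA5 (0.62), COL4A1 (0.57, with 3 identical WT-HER2 values) and the protease gene MMP2 (0.76, SE 0.10, adjusted p = 0.00692) rose. Between the HER2 lines 9 were higher and 1 lower with Delta-HER2 (median 0.13), beside 13.4% and 9.35% of all genes, with ANGPTL4 (1.67), BHLHE40 (0.86), ITGA5 (0.84) and WNT5A (0.54) among the 9. THBS1 was not among them, with a difference of 0.19 (adjusted p = 0.149). TGFBI and SMAD7, which belong with the induced genes, were counted among the 10 and not here. Many of these genes answer to other signals too, and the part of TGF-beta in their levels was not tested.

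The related BMP branch, which uses SMAD1 and SMAD5 in place of SMAD2 and SMAD3, had 1 of 19 genes higher and 5 lower with Delta-HER2, with a median of −0.09. These 6 are a share near the 25.4% called over all genes in either direction, of which 13.6% were higher and 11.7% lower. ID1 and ID3, which BMP signaling induces and which encode inhibitors of basic helix-loop-helix factors, moved apart. ID1 rose by 1.27 (SE 0.08, adjusted p = 2.76e-06), from 5.94 ± 0.09 to 7.22 ± 0.01, and ID3 fell by 1.33 (SE 0.09, adjusted p = 4.99e-06), from 7.94 ± 0.12 to 6.61 ± 0.12. Their relative ID2 fell by 0.78 (SE 0.10), to a mean under the background bound, and ACVR1, a type I receptor gene, by 0.76 (SE 0.14, adjusted p = 0.00297). The single gene that rose was ID1. With WT-HER2, 0 of the 19 passed in limma (median −0.01; 5 at an unadjusted p below 0.05, and 2 with array weights), beside 1.68% of all genes. Between the HER2 lines 1 was higher and 3 were lower (median −0.18), a share near the 22.8% of all genes called (13.4% higher and 9.35% lower). The smallest of these was ACVR1 (−0.47, adjusted p = 0.0372). It lost its call when control replicate 2, any 1 of the 3 WT-HER2 arrays, or replicate 1 or 2 of Delta-HER2 was left out singly. Its adjusted p was then between 0.0601 and 0.119, with differences of −0.50 to −0.34. It also did not pass with median centring (−0.42, adjusted p = 0.0727), and over all alternatives its adjusted p ran from 0.00722 to 0.119.

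**Figure D4:**
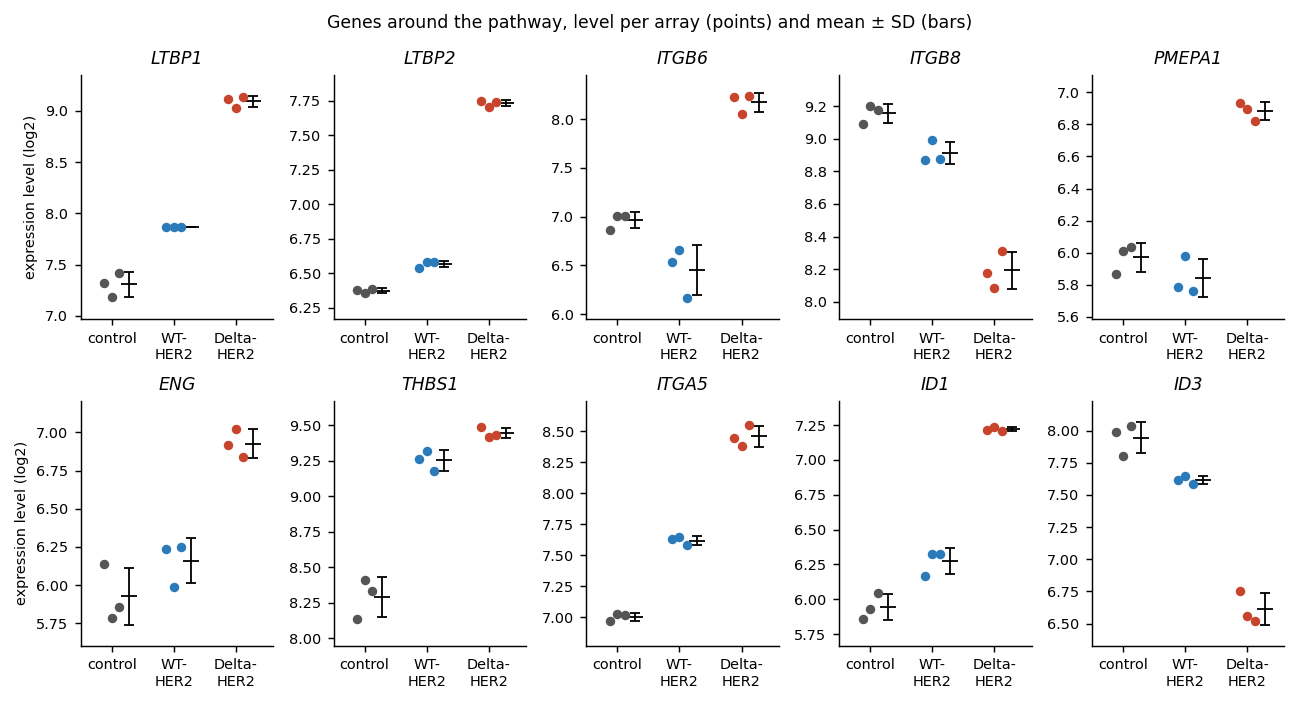
Expression level (log2, as deposited) of 10 genes around the pathway in each array, 3 control (grey), 3 WT-HER2 (blue) and 3 Delta-HER2 (red), with group mean and SD as bars; each panel has its own axis. Delta-HER2 arrays are the highest for LTBP1, LTBP2, ITGB6, PMEPA1, ENG, THBS1, ITGA5 and ID1 and the lowest for ITGB8 and ID3, and WT-HER2 lies near the Delta-HER2 level for THBS1 (9.25 against 9.44).

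Markers of cell types were read beside these results, and those named here were chosen after their values were seen. The mean level of the 11 mammary epithelial markers per array ran from 9.50 to 9.54 for control, from 9.43 to 9.46 for WT-HER2 and from 9.31 to 9.32 for Delta-HER2. Of the 11, 2 rose and 2 fell with Delta-HER2, against 25.4% of all genes called. CDH1, the gene of E-cadherin, fell by 1.03 (adjusted p = 5.06e-06) and the keratin gene KRT15 by 1.81 (adjusted p = 8.41e-07). The keratin gene KRT18 rose by 0.53 (adjusted p = 2.73e-04) and the laminin gene LAMB3 by 0.45 (adjusted p = 0.00185). With WT-HER2, 2 of the 11 also rose and 2 fell, against 1.68% of all genes called. KRT18 (0.34, adjusted p = 0.0377) and LAMB3 (0.38, adjusted p = 0.0448) rose there too. CDH1 (−0.33, adjusted p = 0.0498) and the keratin gene KRT14 (−0.68, adjusted p = 0.00234) fell. The mean level of 10 fibroblast markers per array ran from 3.00 to 3.18 for control, from 3.02 to 3.14 for WT-HER2 and from 3.14 to 3.19 for Delta-HER2. FAP, the fibroblast marker with the highest level, rose by 0.70 with Delta-HER2 (adjusted p = 0.0117). Among 8 endothelial markers, whose array means ran from 2.91 to 3.16 over all groups, PECAM1 went from a mean under the background bound in control (3.00) to one above it with Delta-HER2 (3.90, adjusted p = 1.31e-04), and KDR, also called, lay under the bound in every group. Array means of 8 blood and immune markers ran from 3.64 to 4.04 over all groups. The highest of these markers was CD14, with means of 8.04 in control, 8.28 with WT-HER2 and 7.96 with Delta-HER2. CSF1R fell by 0.98 with Delta-HER2 (adjusted p = 4.68e-04). The part of all these markers in the differences above was not tested. In bulk RNA, fewer cells with a transcript and less of it per cell cannot be told apart.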

How the data were processed

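RNA of 9 MCF10A samples, 3 control, 3 WT-HER2 and 3 Delta-HER2, was measured on arrays. The values are log2 levels that the authors deposited. RMA, affy and R 2.14 are named in the submitters' processing notes. RMA corrects background, normalizes by quantiles, which hides shifts shared by most genes, and gives 1 summary per transcript cluster. No genome build is given in the sources used here. Of 32321 clusters, 19158 had 1 gene symbol. The cluster with the highest mean over the 9 arrays stood for each of 18404 genes, with no filter on low values. Array medians ran from 4.04 to 4.18.

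The fit used limma (version 3.58.1, R 4.3.3) on all arrays, with 1 coefficient per group. Tests were two-sided, adjusted by Benjamini-Hochberg over all genes and called below 0.05. Intervals are 95% intervals of the fit. The median SE was 0.10 log2 and the number of arrays, 3 per group, limits precision. The fit was tested on simulated data. The 10 genes and the lists were chosen with earlier results of these data known. Text names the 10 genes, ERBB2, SMAD2, SMAD4 and, per pathway list and comparison, up to 4 called genes with the smallest p. LTBP3, LTBP4, ACVR2A, SMURF1, CDKN1A, COL1A1 and the cell type markers were named after their values were seen. Genes with a like pattern would have been named for a span of group means of at least 1 log2, which none of the 10 reached. Genes on the lists without a cluster of their own symbol alone were not analysed here (2 induced genes, 1 of the BMP branch). Alternatives were other scalings, filters, cluster means, variance models, array weights, a replicate block, 2 groups per fit, stricter thresholds and arrays left out; those for the lists were chosen after the data had been seen.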

Additional observations from a re-analysis of the deposited data

Results flagged for a closer look

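BAMBI stood out because the HER2 lines lay on opposite sides of control. All 3 WT-HER2 arrays were below every control array and all 3 Delta-HER2 arrays above. Against control neither line passed (limma adjusted p = 0.320 with WT-HER2 and 0.534 with Delta-HER2). The difference between the HER2 lines passed (0.65 log2, limma adjusted p = 0.0198). This call ended when Delta-HER2 replicate 1, 2 or 3 was left out, and with 2 groups in the fit. Without WT-HER2 replicate 3 (3.89, beside 4.60 and 4.60), the difference between the HER2 lines was 0.41 (adjusted p = 0.00199, within 0.00192 to 0.0685 over the alternatives).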

How the results depend on the processing

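Except where a difference of 1 log2 was asked for, the 6 calls of Delta-HER2 against control came to 4 to 7 and the 8 between the HER2 lines to 6 to 9 under every alternative run, and 0 of the called differences changed sign. The count of 4 came with the filter at the array median, which removed TGFB2 and INHBA, while the other 4 stayed called. Asking for at least 1 log2 left 0 in each comparison, since no difference reached it. The single call of WT-HER2 against control, TGFBR1, was less stable. The count was 0 with median centring, 0 with the replicate block, 0 with 2 groups in the fit, 0 at adjusted p below 0.01, and 0 with control replicate 1 and WT-HER2 replicate 3 left out. It was 2 with a mean-variance trend and robust fit and 2 with array weights, which added TGFBI, and 0 to 1 with single arrays left out, which gave 6 to 7 and 7 to 8 calls in the other comparisons. The labels do not say whether the replicate numbers pair the samples. Of 9 arrays, 1 correlated best with its own number. With 3 arrays per group and 2 arrays that stood apart, this cannot settle the question. With the replicate block the counts were 0, 7 and 9, the added call being SMAD7. DCN (adjusted p = 0.0744) and ACVR1 between the HER2 lines (0.0524) lost their calls with the block.

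Differences that changed sign were all uncalled and near 0. With WT-HER2 against control, SMAD3 was 0.023 after quantile normalization and 0.046 with array weights, and INHBA 0.016 with array weights. With both arrays that stood apart left out, INHBA was 0.051, SMAD3 0.048 and SMAD7 0.041. Leaving out single arrays moved TGFB2 between −0.039 and 0.10, INHBA between −0.10 and 0.0067, SMAD3 between −0.066 and 0.032 and SMAD7 between −0.12 and 0.011. TGFBR1 with Delta-HER2 against control was 0.001 after median centring. Over all genes, 309 calls with WT-HER2 became 736 with array weights, 139 with the block, 134 with 2 groups in the fit, 115 at 0.01, 47 at 1 log2 and 126 to 279 with single arrays left out; 4669 with Delta-HER2 became 961 at 1 log2, and 4191 between the HER2 lines 2772 at 0.01 and 781 at 1 log2. For the lists, the 2 calls of the ligand list with WT-HER2 became 1 with the block, at 0.01 and in the 4 leave-outs in which DCN lost its call, and 10 receptor genes with Delta-HER2 became 6 at 0.01. At 1 log2 the lists (ligands, receptors, induced genes, BMP branch) had counts of 0, 0, 0 and 0 with WT-HER2, 3, 1, 4 and 2 with Delta-HER2 and 3, 1, 1 and 1 between the HER2 lines. Apart from fewer arrays, a stricter threshold or genes removed by a filter, the cause was not tested. INHBA and TGFB2 lie near background, which limits their folds.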
